A study of Bos taurus and Bos indicus with 6 samples.

Results

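Clusterin, complement components and complement regulators were described in circulating white blood cells of tick-infested cattle. The members were chosen by name, as every probe set that the platform annotation assigns to CLU, C3, C1QA, C1QB, C5AR1, C3AR1, CFD, CD46, CD55 or CD59 alone. This gave 10 probe sets for 7 of the 10 genes, among 24016 probe sets tested. C5AR1, C3AR1 and CD59 matched no probe set in that table by symbol or Entrez identifier and were not analysed here.

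The 3 Brahman animals (Bos indicus) were compared with 3 Holstein animals (Bos taurus). All 6 were females aged 6 months under heavy challenge with the cattle tick Rhipicephalus microplus, and no uninfested animals were analysed here. Blood was lysed to remove red cells, the unsorted leukocyte pellet was extracted, and each animal was run on its own Affymetrix bovine array. The authors summarised each array with RMA, which gives a log2 expression level per probe set, and every difference below is Brahman minus Holstein. Breed cannot be told apart from anything else that differed between these 2 sets of animals.

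Complement is a set of plasma and membrane proteins that marks and lyses microbes and recruits leukocytes. The classical route starts when C1q, built from the A, B and C chains, binds antibody or a surface, and the alternative route is amplified by factor D (CFD), a serine protease. Both lead to cleavage of C3, whose fragments coat the target and attract cells. CD46 and CD55 are membrane proteins that limit complement on host cells, and clusterin (CLU) is a secreted chaperone that, in humans, also binds the terminal complex. Tick saliva is known to carry inhibitors of host complement.

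The array medians were 6.54 to 6.61, but RMA equalises the distributions of the arrays, so like medians follow from the processing. Pairs of arrays correlated at 0.982 to 0.991 over all probe sets, so no 2 arrays were copies. The brightest measured genes of the T cell (CD3E), B cell (MS4A1) and neutrophil (S100A8) marker lists averaged 11.46, 12.68 and 13.58 in Brahman. In Holstein they averaged 10.92, 12.81 and 13.60. MMP9, also of the neutrophil list, had a mean level of 6.58. The T cell marker list (7 of 8 genes measured) had array means of 10.37 to 10.59 in Brahman and 10.13 to 10.23 in Holstein. The B cell list (4 of 7) had 10.19 to 10.36 in Brahman and 9.90 to 10.12 in Holstein. Neither mean overlapped between breeds, but the B cell genes split, with BLK (0.97) and CR2 (0.35) higher and MS4A1 (-0.14) and CD79A (-0.23) lower in Brahman. Of the T cell genes 6 had higher means in Brahman, from 0.08 (CD5) to 0.96 (LEF1), and CD3G was lower (-0.04). Fewer cells of a type and less RNA per cell cannot be told apart in bulk leukocytes. The mean of 18 hybridisation spike-in probe sets was 9.72 ± 0.08 in Brahman and 10.14 ± 0.22 in Holstein (SD, n = 3 each). The actin 3′ minus 5′ difference, a sign of RNA integrity and labelling, was 1.69 ± 0.04 in Brahman and 1.86 ± 0.13 in Holstein. On both controls every Brahman array read below every Holstein array (exact permutation p = 0.1 each). Differences given below with either control as a covariate therefore cannot fully separate that control from breed.

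Clusterin gave the largest breed difference of the members, with lower values on every Brahman array. The CLU probe set (Entrez gene 280750) read 6.96, 6.74 and 6.22 in Brahman 1, 2 and 3, against 7.68, 8.28 and 7.999 in Holstein 1, 2 and 3. The groups did not overlap, and Brahman 3 was the lowest array. CLU averaged 6.64 ± 0.38 in Brahman and 7.99 ± 0.30 in Holstein (SD, n = 3 each), which is 2.55-fold higher in Holstein (95% interval 1.78 to 3.64). The difference was -1.35 on the log2 scale (SE 0.22).

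In the limma fit over all probe sets CLU had an unadjusted p of 0.000385 and an adjusted p of 0.0936, so it did not pass the threshold of 0.05. It ranked 95 of 24016 by p and 67 by size of the difference. The exact two-sided permutation test over the arrays gave p = 0.1, the smallest that 3 against 3 allows. With each array left out in turn the difference ran from -1.51 to -1.14, and the unadjusted p stayed under 0.05 in all 6 limma fits. The difference was -1.08 (limma unadjusted p = 0.0402, adjusted p = 0.480) with the spike-in mean as a covariate. With the actin 3′ minus 5′ difference as a covariate it was -1.06 (limma unadjusted p = 0.0157, adjusted p = 0.349).

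**Figure D1:**
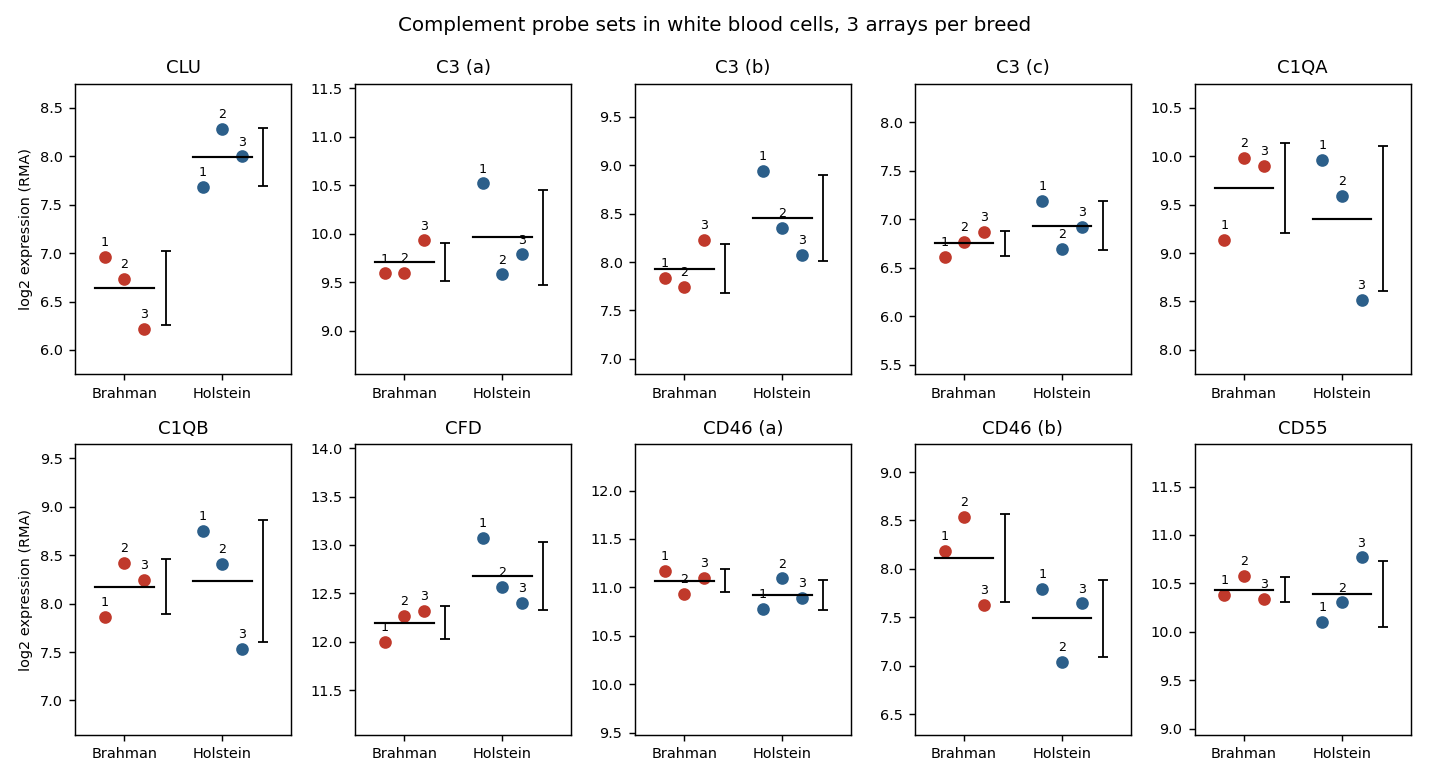
Log2 RMA expression (vertical axes, each spanning the same number of log2 units) of the 10 member probe sets in Brahman (left, red) and Holstein (right, blue). Each point is 1 array, labelled with its replicate number, the line is the mean and the bar the SD of 3 arrays. The breeds do not overlap for CLU and CFD, and they overlap for the other 8 probe sets.

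Platelets are a known store of clusterin in humans, so platelet markers are given beside it. PF4, platelet factor 4, read 9.84, 10.82 and 10.57 in Brahman against 10.76, 11.29 and 10.96 in Holstein, a difference of -0.60 (SE 0.26, limma unadjusted p = 0.0505, adjusted p = 0.369). The groups overlapped, and Brahman 1 was the lowest array. Without Brahman 1 the PF4 difference was -0.31 (limma unadjusted p = 0.130), and with the spike-in covariate it was 0.042. Without Brahman 2 it was -0.80 (limma unadjusted p = 0.0163), and with the actin covariate -0.37. PF4 kept its direction in 14 of 15 alternative runs, with a limma unadjusted p under 0.05 in 5. The other measured platelet markers differed by 0.06 (TUBB1), -0.02 (SELP) and 0.10 (ITGA2B). They were dimmer, with mean levels of 7.25, 6.08 and 4.45 against 10.71 for PF4. ITGA2B lay under 5.08, the lower quartile over the array, a level not shown to be above background. The list mean over its 4 measured genes of 8 ranged from 6.92 to 7.23 in Brahman and from 7.07 to 7.31 in Holstein. The part of platelets in the CLU difference was not tested.

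The 3 named probe sets whose pattern over the 6 arrays was most like that of CLU were those of GOT1 (cytosolic aspartate aminotransferase), ZCCHC17 and HSPD1 (a mitochondrial chaperonin). They were picked among 11001 probe sets with 1 symbol and a level above the lower quartile, by Pearson correlation, which was 0.997, 0.994 and 0.993. Of the candidates 65 exceeded 0.95. GOT1 differed by -0.45, ZCCHC17 by -0.63 and HSPD1 by -0.27, each smaller than CLU and none called by limma (adjusted p = 0.191, 0.142 and 0.274). Since they were picked for likeness to CLU on these same arrays, their lower values in Brahman follow from the choice.

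Over all members, limma called 0 of 10 probe sets at an adjusted p under 0.05, against 0.137% of all probe sets. At an unadjusted p under 0.05 there were 2, CLU and CFD, both lower in Brahman, where 13.6% of all probe sets reached that level and 6.47% did so with lower values. No member had a higher value in Brahman at that level, against 7.12% of all probe sets. The breeds did not overlap for the same 2 probe sets, where 8.37% of all probe sets were lower and 11.7% were higher in Brahman without overlap. With 10 probe sets these shares lie close to the background of the whole array, so the counts of this fit are not a result about complement genes as a group. Of the 10, 6 had lower values in Brahman (44.5% of all probe sets did), and the median difference was -0.12, against 0.02 over all probe sets. Without Holstein 1 the count at an unadjusted p under 0.05 was again 2, but CLU and the dimmer of 2 CD46 probe sets, against 12.7% of all probe sets in that fit. It was 1 without Brahman 1 (9.84% of all) or Brahman 2 (10.9%), 4 without Brahman 3 (9.64%) and 6 with the actin covariate (11.5%), so the count depends on the arrays and on this covariate.

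**Figure D2:**
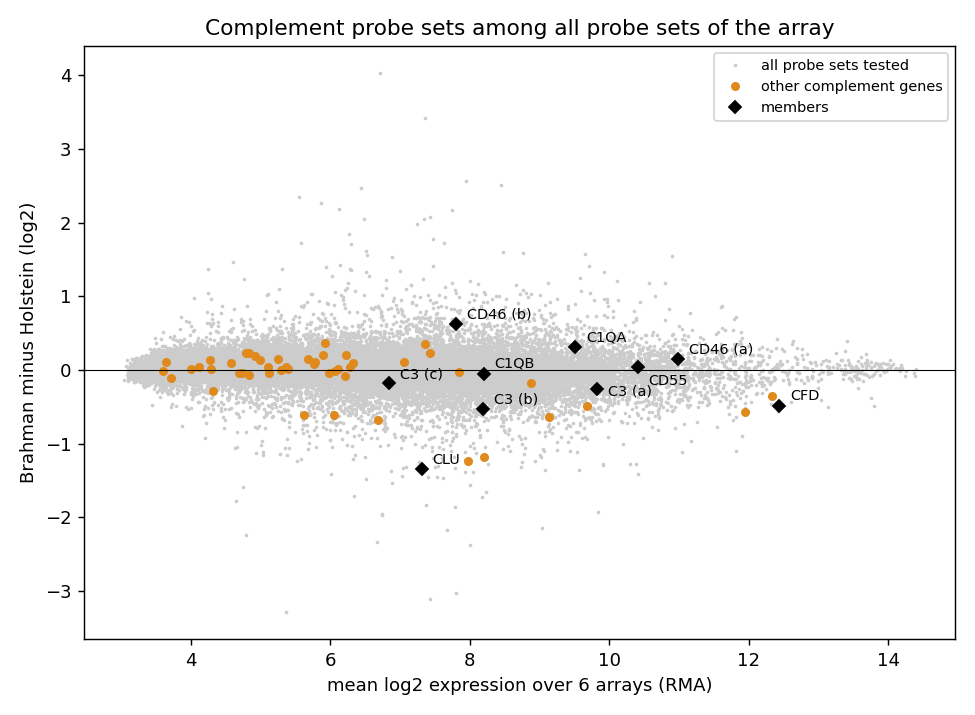
Difference between breeds (vertical axis, Brahman minus Holstein, log2) against mean log2 level over 6 arrays (horizontal axis) for all 24016 probe sets tested (grey), 48 probe sets of other complement genes (orange) and the 10 members (black diamonds). CLU, at -1.35, lies outside the main cloud, and CFD stands at -0.48.

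Factor D, the protease that cleaves factor B in the alternative route, was the other member whose groups did not overlap. Its probe set (Entrez gene 505647) read 12.003, 12.27 and 12.32 in Brahman 1, 2 and 3, against 13.08, 12.57 and 12.40 in Holstein 1, 2 and 3. Every Brahman array was below every Holstein array, but Brahman 3 and Holstein 3 lay close together. CFD averaged 12.20 ± 0.17 in Brahman and 12.68 ± 0.35 in Holstein (SD, n = 3 each), 1.398-fold higher in Holstein (95% interval 1.04 to 1.88). The difference was -0.48 (SE 0.18), with a limma unadjusted p of 0.0324, an adjusted p of 0.324 and an exact permutation p of 0.1. It was -0.29 without Holstein 1, with a limma unadjusted p of 0.0708, and that p was over 0.05 without Brahman 1 or Brahman 2 as well (0.106 and 0.0528). The difference was -0.75 with the spike-in covariate and -0.84 with the actin covariate (limma unadjusted p = 0.0674 and 0.00982).

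C3 (Entrez gene 280677), the protein on which all routes converge, was measured by 3 probe sets, called C3 a, b and c from the brightest to the dimmest. Each had a lower mean in Brahman, and each overlapped between the breeds. C3 a read 9.59, 9.60 and 9.93 in Brahman, against 10.52, 9.58 and 9.79 in Holstein. C3 b read 7.83, 7.74 and 8.22 in Brahman, against 8.94, 8.35 and 8.08 in Holstein. C3 c read 6.61, 6.77 and 6.87 in Brahman, against 7.19, 6.69 and 6.92 in Holstein. Holstein 1 was the highest array for all 3 probe sets, and Brahman 3 the highest Brahman array.

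The C3 differences were -0.26 (95% interval -0.81 to 0.30), -0.52 (-1.07 to 0.02) and -0.18 (-0.52 to 0.15) for a, b and c. Limma gave unadjusted p-values of 0.318, 0.0560 and 0.239 and adjusted p-values of 0.687, 0.379 and 0.621. Without Holstein 1 they were 0.02, -0.28 and -0.06, so the size of the C3 difference rests on that array, and for C3 a the sign as well. With the actin covariate they were -0.80, -0.85 and -0.48, with limma unadjusted p-values of 0.0207, 0.0429 and 0.0261, and with the spike-in covariate -0.89, -0.80 and -0.52, and none was called. Probe sets a and b share a source sequence in the annotation, so they are not independent measures of C3.

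The C1q chains, made mainly by monocytes, macrophages and dendritic cells, varied more among animals than between breeds. C1QA (Entrez gene 534961) read 9.14, 9.98 and 9.90 in Brahman, against 9.96, 9.59 and 8.52 in Holstein. C1QB (Entrez gene 617435) read 7.86, 8.42 and 8.24 in Brahman, against 8.76, 8.41 and 7.53 in Holstein. Holstein 3 was the lowest array for both chains and Brahman 1 the second lowest, so each breed held a low animal. The range among Holstein animals was 1.44 for C1QA and 1.22 for C1QB, while among Brahman animals it was 0.84 and 0.55.

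C1QA differed by 0.31 (95% interval -0.58 to 1.21, limma adjusted p = 0.769) and C1QB by -0.06 (-0.77 to 0.65, limma adjusted p = 0.960). Both signs depended on single arrays: without Holstein 3 the differences were -0.10 and -0.41, and without Holstein 1 they were 0.62 and 0.20. The third chain, C1QC, named after its values were seen, averaged 7.83 ± 0.45 in Brahman and 7.86 ± 0.84 in Holstein and differed by -0.03.

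C1QA and C1QB correlated over the 6 arrays at Pearson r = 0.918 (exact permutation p = 0.0125) and Spearman rho = 0.886 (exact permutation p = 0.0333). This was the highest r of 21 pairs of member genes, each by its brightest probe set, and the Benjamini-Hochberg adjusted p-values over the 21 pairs were 0.262 and 0.700. Without the 2 arrays farthest from the median of C1QA r was 0.250. Leaving out these arrays also narrows the range of values, so it cannot show whether the relation rests on them alone. After the breed means were removed r was 0.986. The monocyte marker list (5 of 8 genes measured) ranged from 8.26 to 8.52 in Brahman and from 8.35 to 8.80 in Holstein. Of those genes CD14 differed by -0.94 (limma adjusted p = 0.141) and VCAN by 0.92 (limma adjusted p = 0.0719). CD68 differed by -0.54, CSF1R by -0.31 and FCGR1A by 0.04. The part of monocyte number in the C1q, C3 and factor D values was not tested.

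The membrane regulators had higher means in Brahman, by 0.04 to 0.63, and limma called none of their 3 probe sets. CD46 (Entrez gene 280851), which helps to inactivate deposited C3b and is in cattle a receptor for bovine viral diarrhoea virus, had 2 probe sets. CD46 a, the brighter, read 11.17, 10.94 and 11.09 in Brahman, against 10.78, 11.09 and 10.89 in Holstein. CD46 b read 8.18, 8.53 and 7.63 in Brahman, against 7.79, 7.04 and 7.64 in Holstein. The groups overlapped on both, and on CD46 b Brahman 3 lay below Holstein 1 and Holstein 3.

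CD46 a differed by 0.15 (95% interval -0.12 to 0.42, limma adjusted p = 0.625), by 0.08 without Holstein 1, and by 0.40 and 0.38 with the spike-in and actin covariates. CD46 b differed by 0.63 (95% interval -0.0028 to 1.26), with a limma unadjusted p of 0.0508 and an adjusted p of 0.369. The CD46 b difference ran from 0.40 without Holstein 2 to 0.87 without Brahman 3. It was -0.22 with the spike-in covariate and -0.01 with the actin covariate, so its direction depends on those settings. CD55, which speeds the decay of the C3-cleaving enzymes (Entrez gene 518609), read 10.38, 10.58 and 10.33 in Brahman, against 10.10, 10.30 and 10.77 in Holstein. Both the highest and the lowest array for CD55 were Holstein. Its difference was 0.04 (95% interval -0.37 to 0.45, limma adjusted p = 0.946), and it changed sign when Holstein 1, Holstein 2 or Brahman 2 was left out.

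**Figure D3:**
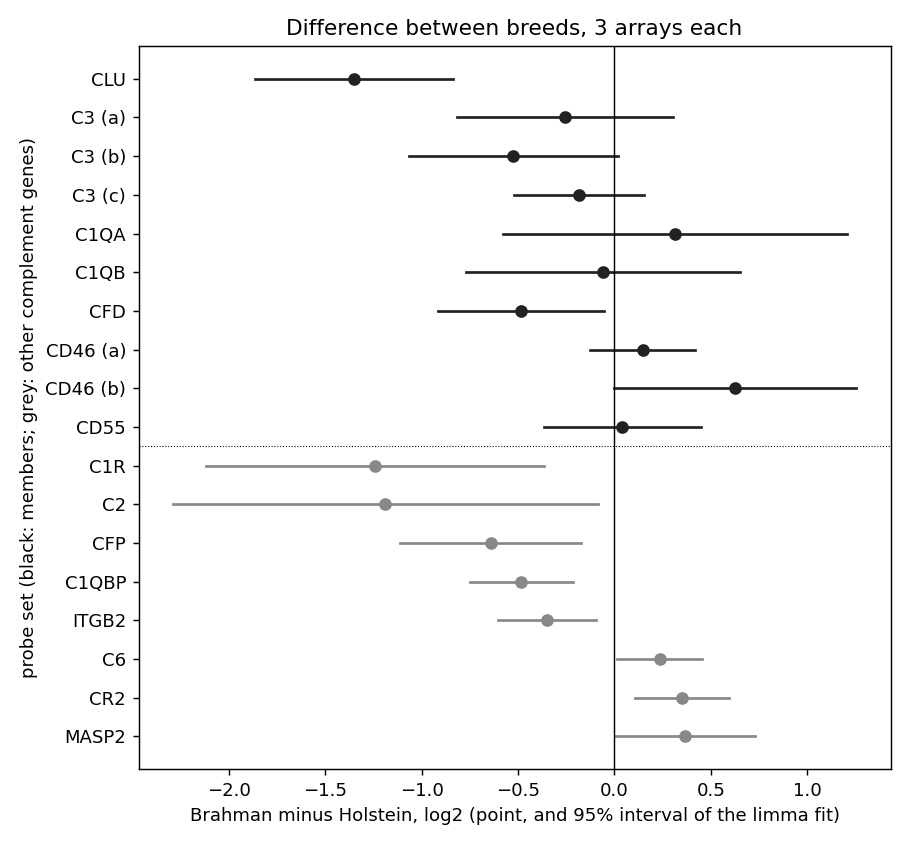
Difference between breeds (horizontal axis, Brahman minus Holstein, log2) with its 95% interval from the limma fit, for the 10 member probe sets (black) and the 8 probe sets of other complement genes with an unadjusted p under 0.05 (grey). The intervals of CLU and CFD lie below 0, and those of the other 8 members include 0.

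**Figure D4:**
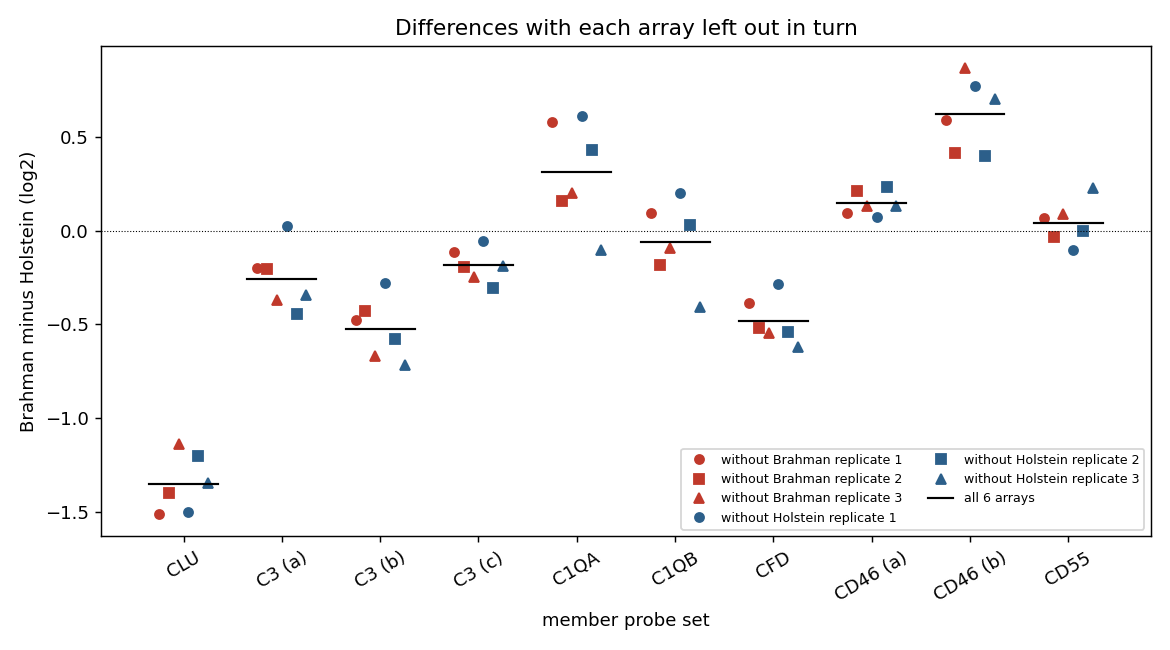
Brahman minus Holstein difference (vertical axis, log2) of each member probe set with all 6 arrays (line) and with each array left out (points; red for a Brahman and blue for a Holstein array, with a shape for the replicate). CLU stays between -1.51 and -1.14, while C3 a, C1QA, C1QB and CD55 take both signs.

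Other genes of the complement system were given from a list of 42 names, of which 34 were measured by 48 probe sets. Limma called 0 of the 48 (lowest adjusted p = 0.178), and 8 reached an unadjusted p under 0.05, 5 lower and 3 higher in Brahman. That share is near the 13.6% of all probe sets. Among probe sets whose mean was above the median, 6 of 12 reached that level, against 15.8% of all such probe sets. Among those with a mean above the lower quartile it was 6 of 32, against 14.7%, so the share depends on the filter. The median difference over the 48 was 0.015, against 0.023 over all probe sets.

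The lower ones were C1R, C2, CFP, ITGB2 and C1QBP. C1R, a protease of the C1 complex, averaged 7.36 ± 0.39 in Brahman and 8.60 ± 0.77 in Holstein (SD, n = 3 each), a difference of -1.24 (SE 0.38, limma unadjusted p = 0.0120, adjusted p = 0.252). C2, which gives the protease part of the classical C3-cleaving enzyme, averaged 7.61 ± 0.33 in Brahman and 8.80 ± 1.04 in Holstein, a difference of -1.19 (limma unadjusted p = 0.0379). It was -2.66 with the spike-in covariate and -2.37 with the actin covariate. Its second probe set differed by -0.67, with overlap. CFP, properdin, which stabilises the alternative C3-cleaving enzyme, averaged 8.82 ± 0.15 in Brahman and 9.46 ± 0.41 in Holstein. ITGB2, the beta chain of some of the complement receptors for C3 fragments, differed by -0.35, and C1QBP, a mainly mitochondrial protein that binds C1q, by -0.48. With the spike-in covariate these were -0.55 and -0.31 (limma unadjusted p = 0.0221 and 0.177). With the actin covariate they were -0.47 and -0.29 (limma unadjusted p = 0.0242 and 0.101). The limma unadjusted p of CFP was 0.140 with the spike-in covariate and 0.0258 with the actin covariate.

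The 3 higher ones were CR2, a B cell receptor for C3 fragments (0.35), MASP2, a protease of the lectin route (0.37), and the terminal component C6 (0.24). CR2 is also 1 of the 4 measured genes of the B cell marker list, of which MS4A1 and CD79A had lower means in Brahman. The other CR2 probe set differed by 0.15, the other MASP2 probe sets by 0.11, -0.08 and -0.04, and the other C6 probe set by -0.02. Without Brahman 1 the MASP2 difference was 0.19 (limma unadjusted p = 0.130). With the spike-in covariate it was 0.22 and that of C6 0.041. The CR2 difference was 0.29 with the spike-in covariate and 0.27 with the actin covariate (limma unadjusted p = 0.192 and 0.142). The C6 means of 4.95 in Brahman and 4.72 in Holstein lie under 5.08, the lower quartile over the array, a level not shown to be above background. C5AR2, a second receptor for the C5a fragment, named after its values were seen, differed by -0.18 (limma adjusted p = 0.734).

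Holstein 1 gave high values for several complement genes. It was the highest array for 5 of the 10 member probe sets (all of C3, C1QB and CFD), against 21% of all probe sets. It was the lowest array for 2 of the 10, CD46 a and CD55, against 19.3% of all probe sets. Among the 5 lower probe sets of other genes, whose highest array had to be a Holstein, it was the highest for C1R, C2, CFP and ITGB2. C2 read 10.00 on Holstein 1 and at most 8.26 on any other array, and C1R read 9.41 against at most 8.53. Without Holstein 1 the differences were -0.59 for C2, -0.84 for C1R and -0.47 for CFP. The mean of the monocyte list was highest on Holstein 1 (8.80), as was that of the neutrophil list (11.33). Not all genes of these lists were high there. Of the monocyte genes CD68, CSF1R, CD14 and FCGR1A were highest on Holstein 1, and VCAN was lowest (7.55). Of the neutrophil genes only FCGR3A was highest on Holstein 1 (10.17), while S100A8, S100A9, S100A12 and MMP9 were highest on Brahman 2. CLU was also not highest on Holstein 1, which was the lowest of the Holstein arrays for it.

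**Figure D5:**
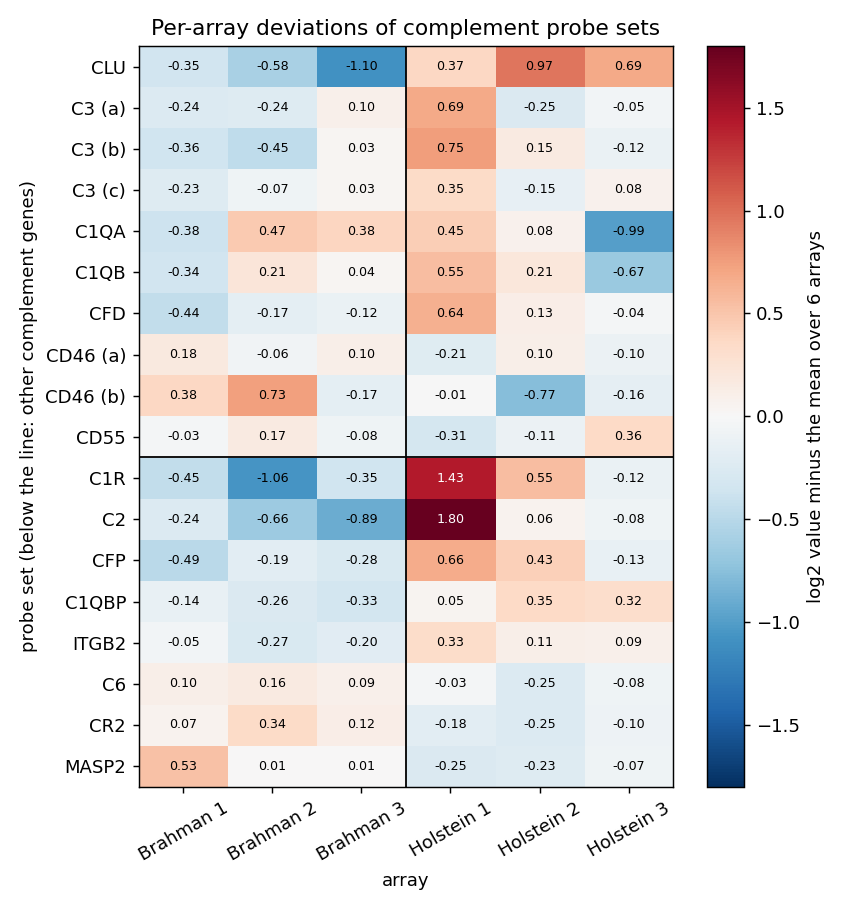
Log2 value minus its mean over the 6 arrays (colour and printed number) for the 10 member probe sets and, below the line, 8 probe sets of other complement genes, with Brahman arrays left and Holstein arrays right. Holstein 1 shows the highest values for C3, CFD, C1R and C2, and CLU is negative on all Brahman arrays and positive on all Holstein arrays.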

How the data were processed

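The deposited table holds log2 expression values of 6 arrays that the authors made with RMA, per the submitters' processing notes, in a version not given in the sources used here. Since RMA equalises the distributions of the arrays, it would hide a change in total RNA. Of 24128 probe sets, 112 array controls were left out of the test. Genes came from the platform annotation. No sequence, scanner intensity or detection call was used, and the number of arrays limits the precision.

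Breeds were compared with limma 3.58.1 in R 4.3.3 (lmFit and eBayes, breed as the only term), with two-sided p-values adjusted by Benjamini-Hochberg over 24016 probe sets and a threshold of 0.05. Intervals are those of the fit. The code was tested on simulated data. The members, lists and rules were chosen with earlier results of these data known. All members are named. Of the other complement genes those with an unadjusted p under 0.05 are named, and others are said to be named after their values were seen. Marker lists use the brightest probe set per gene. Alternatives were other scalings, filters on dim probe sets, priors, array weights, a replicate block, array controls as covariates, and leaving out each array.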

Additional observations from a re-analysis of the deposited data

How the results depend on the processing

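No member was called under any alternative run, and CLU, CFD, C3 b, C3 c and CD46 a kept their direction in all 15. The adjusted p of CLU ran from 0.0785 to 0.480. The 2 members at an unadjusted p under 0.05 became 1 with the replicate block (14.1% of all probe sets), 6 with the actin covariate (11.5%) and 1 to 4 with an array left out (9.64% to 16% of all). The members' median difference of -0.12 was -0.37 with the spike-in covariate, -0.45 with the actin covariate and -0.27 to -0.02 with an array left out. Limma called 33 probe sets in all, 10 with the replicate block, 3 with the actin covariate, 0 with the spike-in covariate (2400 at an unadjusted p under 0.05) and 5 to 55 with an array left out (without Brahman 2 and without Holstein 3). The 8 other complement genes at an unadjusted p under 0.05 became 5 with the spike-in covariate (9.99% of all probe sets). With an array left out they became 6 to 10 (9.64% to 16% of all). Signs turned, also for the larger differences of CD46 b (0.63 in the fit as reported) and PF4 (-0.60): with array weights C1QB (0.015), C1QC (0.066) and CD55 (-0.017), with the spike-in covariate CD46 b (-0.22), C1QC (0.033), C5AR2 (0.52) and PF4 (0.042), and with the actin covariate CD46 b (-0.0088), C1QA (-0.082) and C5AR2 (0.30). With an array left out C3 a ran from -0.45 to 0.023, C1QA from -0.10 to 0.62, C1QB from -0.41 to 0.20, C1QC from -0.49 to 0.31 and CD55 from -0.10 to 0.23. The cause of these changes was not tested.

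The labels do not say whether the replicate numbers pair the animals. Deviations of same-numbered arrays from their breed means correlated at 0.11, -0.04 and -0.07. Holstein 2 and Holstein 3 correlated best with a Brahman array of another number. With 3 arrays per breed these correlations cannot show whether animals were paired. The block changed no call of a member. Where an interval given above includes 0, differences of the sizes within it were neither shown nor excluded.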
